A study of Mus musculus with 4 samples.

Results

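The genes that write, copy and erase DNA methylation were examined in mouse embryonic stem (ES) cells carrying the leukemogenic fusion Nup98-HoxA9. The set holds 10 genes: the methyltransferases Dnmt1, Dnmt3a and Dnmt3b with their cofactor Dnmt3l, the dioxygenases Tet1, Tet2 and Tet3, the Dnmt1 partner Uhrf1, and the imprint guards Zfp57 and Trim28. Members were taken as every non-control array probe whose RefSeq transcript belongs to one of these genes. This gave 16 probes for 9 of the 10 genes, out of 55562 probes with a value on all arrays. Tet1 was matched by no probe and has no value here. Of the 16 probes, 14 were well above background on all 4 arrays, and the remaining 2, both for Tet3, were well above background on none.

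Total RNA of 4 lines was hybridised to 1 one-colour expression array each. Parental ES cells are the EB3 line, which carries no transgene of the study. Nup98-HoxA9 ES clones #1 and #9 were picked from EB3 cells after Tol2 transposition of a FLAG-tagged fusion of the human Nup98 N-terminus, with its FG repeats, to the HoxA9 C-terminus, and hygromycin B selection. HoxA9-Ct ES was made in the same way with the homeodomain-containing HoxA9 C-terminus alone, and is a single clone. All lines were grown on gelatin with LIF, which keeps ES cells undifferentiated. Parental ES went through neither transposition nor clonal selection, so that these steps and the transgene cannot be told apart in a comparison with parental ES. Only the Nup98-HoxA9 group has more than 1 line, and the spread between its clones is the only biological spread available.

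DNA methylation in mammals sits mostly on the cytosine of CpG dinucleotides. Dnmt3a and Dnmt3b place new methyl groups, and Dnmt3l, which has no catalytic activity of its own, binds and stimulates both. Dnmt1 copies the pattern onto the daughter strand after replication, recruited by Uhrf1, which recognises hemimethylated CpG. Tet enzymes oxidise 5-methylcytosine and open the way to its removal. Zfp57, a KRAB zinc finger protein, binds the methylated allele of imprinting control regions and brings in Trim28 (KAP1), the scaffold that recruits H3K9 methylation and the Dnmts. ES cells express the de novo enzymes and Dnmt3l at high levels, and these levels differ between naive and primed pluripotent cells.

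The regions upstream of these genes differ widely in CpG content, and 1 window is printed for each of the de novo genes and for Tet2. RefSeq lists 19 starts for the 10 genes, and the 250 bases before each were read on the gene's strand (GRCm38.p6, capitals mark CpG). The sequences come from RefSeq, some windows of 1 gene overlap, and the arrays do not tell which start is used.
Dnmt3a (chr12:3891494-3891743, plus strand, the most downstream start listed): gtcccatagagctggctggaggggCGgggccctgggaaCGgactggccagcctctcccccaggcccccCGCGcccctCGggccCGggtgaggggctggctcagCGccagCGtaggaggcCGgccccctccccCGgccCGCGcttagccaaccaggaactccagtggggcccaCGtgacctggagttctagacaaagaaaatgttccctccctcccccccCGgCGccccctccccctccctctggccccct
Dnmt3b (chr2:153649199-153649448, plus strand): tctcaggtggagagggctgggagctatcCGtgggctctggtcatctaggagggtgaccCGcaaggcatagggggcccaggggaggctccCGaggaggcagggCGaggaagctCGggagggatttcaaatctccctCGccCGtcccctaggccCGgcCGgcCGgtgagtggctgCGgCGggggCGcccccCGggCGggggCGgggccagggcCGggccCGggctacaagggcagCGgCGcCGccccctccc
Dnmt3l (chr10:78042037-78042286, plus strand, the most upstream start listed): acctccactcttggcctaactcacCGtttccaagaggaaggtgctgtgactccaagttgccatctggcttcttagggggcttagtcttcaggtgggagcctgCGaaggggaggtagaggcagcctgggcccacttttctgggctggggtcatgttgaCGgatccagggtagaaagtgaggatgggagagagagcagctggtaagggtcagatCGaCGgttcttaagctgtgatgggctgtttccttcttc
Tet2 (chr3:133544391-133544640, minus strand): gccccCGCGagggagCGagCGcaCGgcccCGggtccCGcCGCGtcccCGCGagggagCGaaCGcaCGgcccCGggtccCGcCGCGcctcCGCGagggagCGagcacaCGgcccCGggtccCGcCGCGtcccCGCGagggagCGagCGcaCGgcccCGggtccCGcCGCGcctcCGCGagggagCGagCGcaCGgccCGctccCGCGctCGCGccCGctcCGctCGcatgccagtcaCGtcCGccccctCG

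The Tet2 window holds 51 CpG, more than 99.9% of the 32851 windows of 27025 genes in the same table. The Dnmt3b window holds 21 and the printed Dnmt3a window 15, while the upstream Dnmt3a windows hold 38 and 40. The 3 Dnmt3l windows hold 5 (printed), 4 and 3, fewer than the median of 6 over all windows, and the lowest number of the 19, 2 CpG, was in a Dnmt1 window. The median of the 19 windows was 15. A HOX-PBX octamer, the kind of site that HOX proteins bind together with PBX (TGATTTAT, either strand), was found in 0 of the 19 windows and in 0.837% of all windows. A GC box (GGGCGG, either strand) was found in 12 of 19, against 32.7% of all windows. An E2F motif (TTTCGCGC, either strand) was found in 1 Dnmt1 window and 1 Uhrf1 window, against 0.256% of all windows. A letter match is a description and not evidence of binding, and a window without a match says nothing about the factor elsewhere.

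Levels are given as log2 of the processed signal relative to the 75th percentile of the array, so that 0 is the level below which 75% of spots lie. This percentile was 209 to 253 intensity units, 49.9% to 53.0% of spots were well above background, and no spot was saturated. The median SD between 10 spots of the same probe was 0.11 to 0.12 on the log2 scale, and each member probe has 1 spot. This spot SD is that of a single spot, and a difference between single spots of different arrays varies more. It serves below as a scale and not as a test. Of all probes, 25529 were well above background on each array. Their median log2 ratio to parental ES was 0.00 for HoxA9-Ct ES, -0.03 for clone #1 and -0.12 for clone #9, and the member ratios below are read against these medians. All 12 pluripotent ES markers were well above background on every array. Their summed signal was 1289 times the 75th percentile in parental ES and 1339 in HoxA9-Ct ES, against 1406 in clone #1 and 1250 in clone #9. Of 7 fibroblast markers, Dcn, Lum and Postn were well above background on no array, and Col1a1 and Thy1 were on all 4. The log2 ratio of clone #9 to parental ES was 1.93 for Col1a1 and 1.17 for Thy1, against -0.18 and 0.30 for clone #1. The summed signal of these 2 genes, at least 98.1% of it from Thy1, was 7.48 in parental and 10.4 in HoxA9-Ct ES, with clone #1 at 9.15 and clone #9 at 17.0. Col1a2 was above background on 2 arrays and Col3a1 on 1.

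The 3 genes of the de novo machinery had lower signal in both Nup98-HoxA9 clones than in parental and HoxA9-Ct ES, at each of their 5 probes. At probes above background, the maintenance genes, Tet2, Tet3, Zfp57 and Trim28 were within a log2 ratio of 0.33 of parental ES in either clone. None of these differences passed the test across all probes (limma, Benjamini-Hochberg adjusted p of 0.05), in which every probe shares a standard error of 0.56 on the log2 scale for comparisons with the clones and of 0.64 for HoxA9-Ct against parental ES.

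Dnmt3a, read by 1 probe, had a level of 1.21 in parental and 1.10 in HoxA9-Ct ES, with clone #1 at 0.44 and clone #9 at 0.39. Both clones lay below both other lines, and the clones differed by 0.05, less than the spot SD. The clones held 58.7% and 56.8% of the parental signal, and HoxA9-Ct ES held 92.9%. Averaged over the clones, the log2 ratio to parental ES was -0.79 ± 0.56 (SE, n = 2 clones against 1 array; 95% interval -1.88 to 0.30; limma adjusted p = 1.00). Among the 25529 probes above background, 2.88% had a lower ratio. Parental and HoxA9-Ct ES, neighbours in the order of levels, differed by 0.11, which is within the spot SD. This probe lies in spot row 348 of 384, in the last eighth of the array, and any effect of position was not tested.

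Dnmt3b was read by 3 probes, numbered by signal. Probe 1 had a level of 6.15 in parental ES and 6.24 in HoxA9-Ct ES, against 5.68 in clone #1 and 5.46 in clone #9. The order was the same at the other 2 probes: HoxA9-Ct ES highest, then parental ES, clone #1 and clone #9. Clone #1 held 72.3%, 82.4% and 78.0% of the parental signal at probes 1, 2 and 3, and clone #9 held 62.0%, 63.8% and 64.0%. The mean log2 ratio of the clones was -0.58 ± 0.56 at probe 1, and -0.46 and -0.50 at probes 2 and 3 (limma adjusted p = 1.00 at each). The 3 probes thus differed by at most 0.11 in this ratio, about the spot SD. They measure the same RNA on the same arrays and are not replicates of the lines. HoxA9-Ct ES was 0.09, 0.20 and 0.23 above parental ES on the log2 scale at the 3 probes, of which only the first is within the spot SD.

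Dnmt3l showed the widest range of all member probes that were above background, 1.39 on the log2 scale. Its level was 6.14 in parental and 6.75 in HoxA9-Ct ES, with clone #1 at 5.36 and clone #9 at 5.81. Both clones were below parental ES and HoxA9-Ct ES was above it, and every pair of neighbours in this order differed by more than the spot SD. The clones held 58.1% and 79.8% of the parental signal and HoxA9-Ct ES held 152%. The clones also differed from each other more than at any other member probe above background, by 0.46. Against HoxA9-Ct ES, the mean of the clones gave a log2 ratio of -1.16 ± 0.56 (SE, 95% interval -2.25 to -0.071). The adjusted limma p of this difference was 0.653. This was the only member probe with an unadjusted limma p below 0.05 in any of the 3 comparisons. With the normexp background correction the same difference was -1.11 with an adjusted limma p of 2.9e-04, and with eBayes trend and robust estimation the adjusted p was 2.2e-05, so that the call for Dnmt3l depends on the processing. Without clone #1 the difference was -0.93 and without clone #9 it was -1.39, for which no test was possible. HoxA9-Ct ES against parental ES gave 0.61 ± 0.64 (limma adjusted p = 1.00), from 1 array each.

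**Figure D1:**
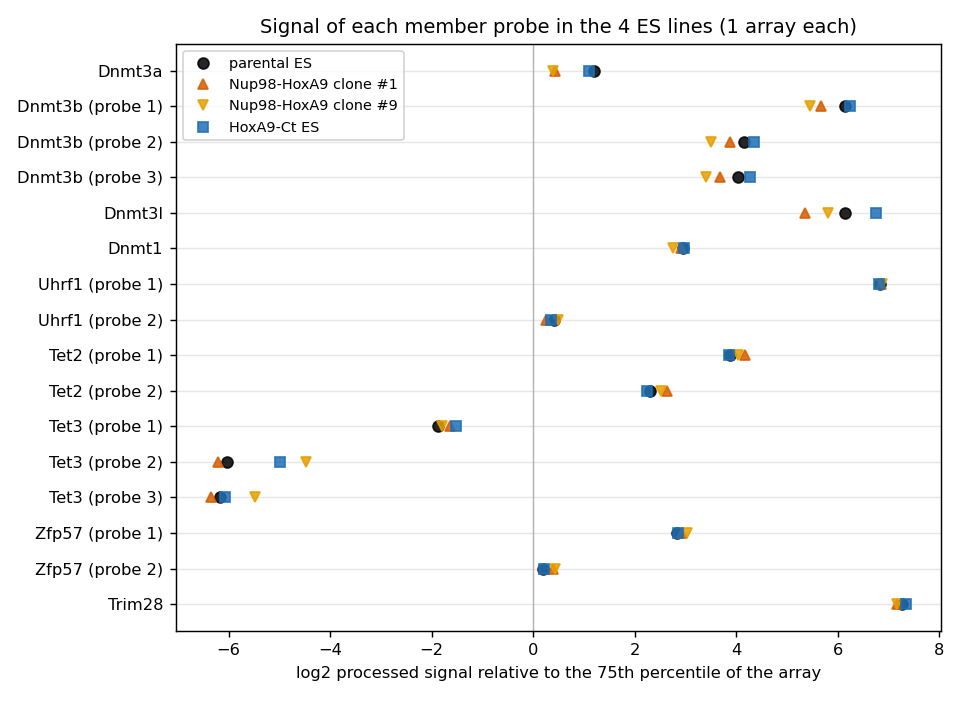
Level of each member probe in the 4 lines (horizontal axis, log2 processed signal relative to the 75th percentile of the array; 1 symbol per line and probe, 1 array each, no error bars). The 5 probes of Dnmt3a, Dnmt3b and Dnmt3l have both clones to the left of parental and HoxA9-Ct ES. The lower pair of Tet3 probes, between -6.36 and -4.48, was not well above background.

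The maintenance pair showed no common shift. Uhrf1 probe 1 had a level of 6.83 in parental ES and 6.81 in HoxA9-Ct ES, against 6.84 in clone #1 and 6.88 in clone #9, and the whole range of 0.07 is below the spot SD. Its second probe, in the last eighth of spot rows, had 0.42 and 0.34, against 0.25 and 0.49, with the clones on either side of the other lines. Dnmt1 had a level of 2.96 in parental and 2.97 in HoxA9-Ct ES, with clone #1 at 2.92 and clone #9 at 2.75. Both clones were below both other lines, but clone #1 by only 0.04. The mean log2 ratio of the clones was -0.13 ± 0.56 for Dnmt1 and 0.03 ± 0.56 for Uhrf1 probe 1 (limma adjusted p = 1.00 for both), and 40.3% of probes had a lower ratio than Dnmt1.

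Tet2 lay on the other side of parental ES. At probe 1 its level was 3.87 in parental ES and 3.87 in HoxA9-Ct ES, against 4.18 in clone #1 and 4.04 in clone #9. At probe 2 it was 2.31 and 2.25, against 2.64 and 2.52. Both clones were above both other lines at either probe, and the clones differed by 0.13 and 0.12. Clone #1 held 123% and 126% of the parental signal and clone #9 113% and 116%. The mean log2 ratio was 0.24 ± 0.56 and 0.27 ± 0.56 (limma adjusted p = 1.00 for both). Probe 1 is in the last eighth of spot rows and probe 2 is not, and their ratios differed by 0.03.

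Tet3 was dim. Its brightest probe had a level of -1.87 in parental and -1.53 in HoxA9-Ct ES, with clone #1 at -1.64 and clone #9 at -1.80. HoxA9-Ct ES was the line with the highest signal. The mean log2 ratio was 0.15 ± 0.56 for the clones and 0.34 ± 0.64 for HoxA9-Ct ES (limma adjusted p = 1.00 for both). The other 2 probes were not well above background on any array, so that no ratio is given for them.

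Zfp57 and Trim28, which act together at imprints, lay on opposite sides of parental ES by small amounts. Zfp57 probe 1 had 2.83 in parental ES and 2.86 in HoxA9-Ct ES, against 2.94 in clone #1 and 3.02 in clone #9. Probe 2 had 0.19 and 0.22, against 0.40 and 0.42. Both clones were the higher lines at each probe, with mean log2 ratios of 0.15 and 0.22. Trim28 had 7.28 in parental and 7.35 in HoxA9-Ct ES, with clone #1 at 7.17 and clone #9 at 7.17. Both clones were the lower lines, at 92.9% and 93.1% of the parental signal, with a mean log2 ratio of -0.11. The median over all probes above background was -0.07, and 43.9% of them had a lower ratio than Trim28, so that Trim28 was near the typical probe. No difference for these genes was past the threshold (limma adjusted p = 1.00 for each), and that of Trim28 was within the spot SD.

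Across the 14 probes above background, both clones were below both other lines at 7 and above both at 5. Over all 25529 such probes the shares were 32.3% below and 17.3% above, so that these positions were frequent in general. By role, both clones were below both other lines at 5 of 5 de novo probes, 1 of 3 maintenance probes, 0 of 3 Tet probes and 1 of 3 imprint guard probes, and above both at 0, 1, 2 and 2. The clones had a median log2 ratio of -0.55 to parental ES for the 5 de novo probes, which stand for 3 genes, and -0.08 for all 14 probes, next to -0.07 for all 25529. The median for HoxA9-Ct ES was 0.20 for the de novo probes and 0.03 for the 14. Normexp background correction, quantile normalization, centring on the median of each array and the authors' own scaling each left both clones below both other lines at 5 of 5 de novo probes. These settings rescale the same arrays, and the last 2 shift all probes of an array by nearly the same amount. The kept order is therefore no separate check. In number of calls, limma passed 0 of the 14 member probes in the comparison of the clones with parental ES, where 781 of 55562 probes (1.41%) were called. The counts were 0 in HoxA9-Ct against parental ES, where 0.405% of probes were called, and 0 in the clones against HoxA9-Ct ES, where 1.36% were called. With 1 standard error for every probe, a call depended on the size of the ratio alone. In the clones against parental ES, the endoderm marker Gata4 with 1.88 was not called (limma adjusted p = 0.051). The 14 member probes had mean ratios of -0.79 to 0.27 there. Their 0 calls therefore cannot tell an unchanged gene from a change of that size. At an unadjusted limma p below 0.05 the member counts were 0, 0 and 1, where 6.26%, 3.51% and 6.55% of all probes passed. Under normexp correction 5 of 14 member probes had an unadjusted limma p below 0.05 in the clones against parental ES, namely those of Dnmt3a, Dnmt3b and Dnmt3l, with a lowest adjusted p of 0.139, and 4.81% of all probes passed. The same 5 did so with eBayes trend and robust estimation, with a lowest adjusted p of 0.136, where 7.82% of all probes passed.

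**Figure D2:**
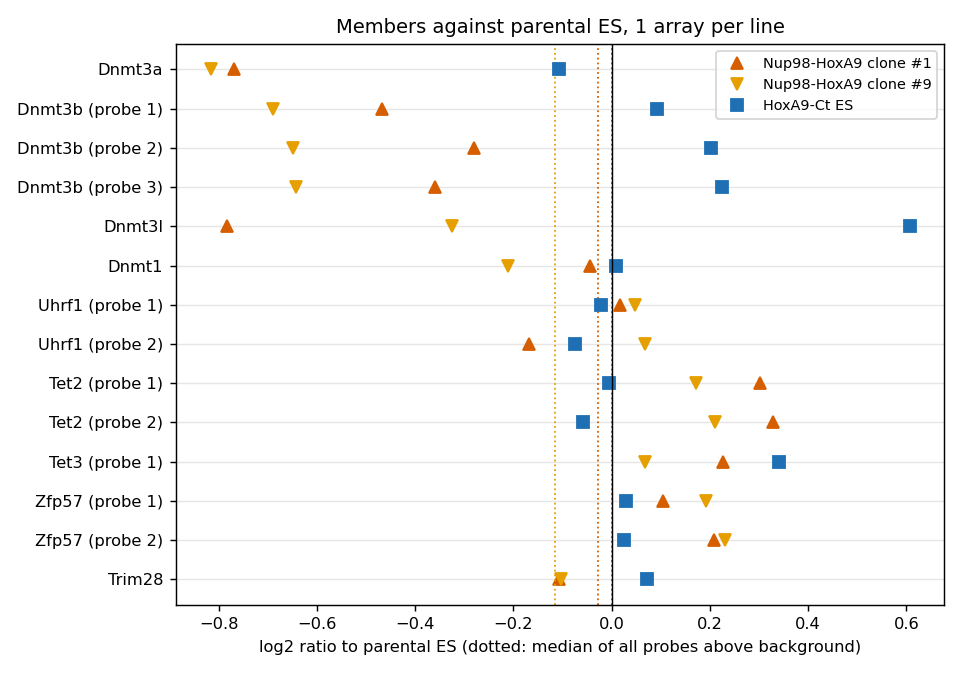
Log2 ratio of each line to parental ES (horizontal axis) for the 14 member probes above background, 1 array per line and no error bars. Triangles are the clones, squares HoxA9-Ct ES, dotted lines the median of all 25529 probes above background in each line. The 5 de novo probes lie between -0.82 and -0.28 in the clones, while Tet2 and Zfp57 lie between 0.10 and 0.33.

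The ratios of both clones above share the parental array. To set the clones side by side with no array in common, clone #1 was divided by parental ES and clone #9 by HoxA9-Ct ES, and then the reverse. The log2 ratios of the first arrangement were -0.77 and -0.71 for Dnmt3a, -0.47 and -0.78 for Dnmt3b, and -0.78 and -0.93 for Dnmt3l. The second arrangement gave -0.82 and -0.66 for Dnmt3a, -0.69 and -0.56 for Dnmt3b, and -0.33 and -1.39 for Dnmt3l. All were below 0, which follows from both clones lying below both other lines. That position was held by 32.3% of all 25529 probes above background, and the signs are no separate check. Tet2 gave 0.30 and 0.18, then 0.17 and 0.31, above 0 because both clones lay above both other lines (17.3% of probes). Tet3 had opposite signs, with 0.23 and -0.27, then 0.07 and -0.11.

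**Figure D3:**
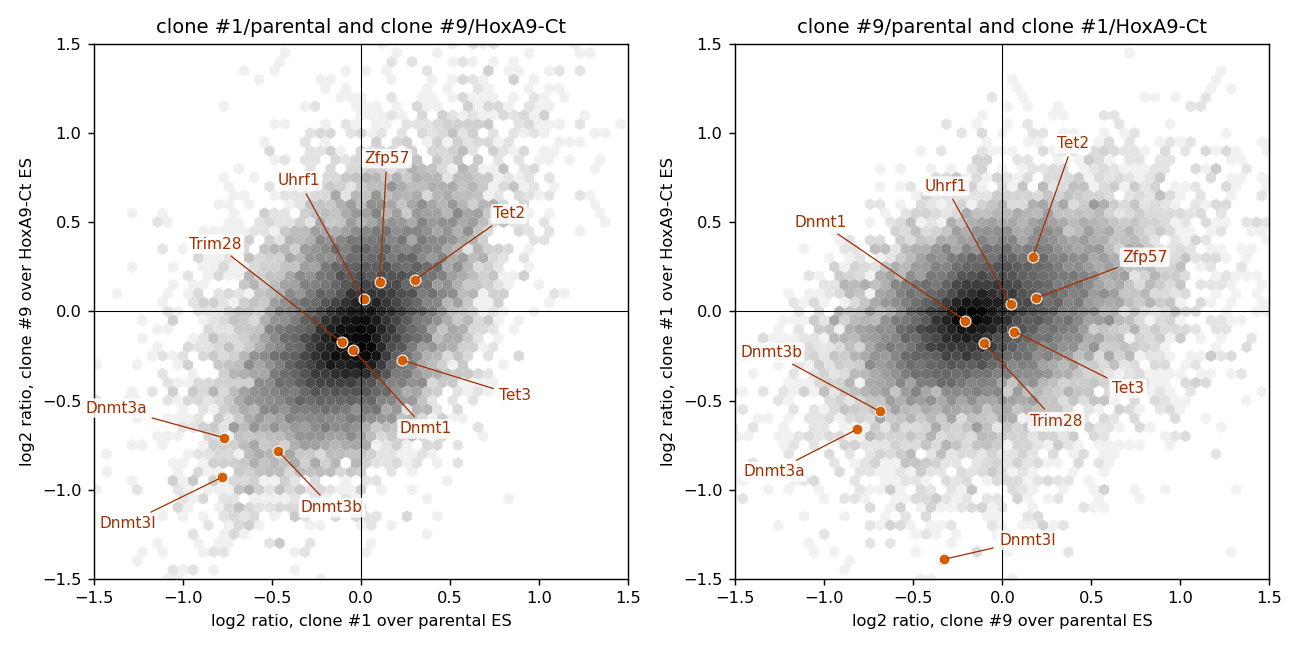
Log2 ratios of the brightest probe of each of the 9 genes (labelled points) over the density of all probes above background (grey hexagons, darker for more probes on a log scale; probes beyond the axes are not drawn). The axes of each panel use different arrays. Dnmt3a, Dnmt3b and Dnmt3l lie in the lower left of both panels, and Tet2 in the upper right.

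Genes that work with these enzymes were described from 5 lists. The methyl-CpG readers (9 of 9 genes above background) had a median of -0.05 for the log2 ratio of clones to parental ES, and limma called 0. Their largest differences were those of Zbtb4 (0.95), Mbd2 (0.64) and Zbtb38 (-0.45). Zbtb4 was dim, at -3.20 in parental ES, and with normexp correction it had 0.32, below Mbd2 with 0.53. The demethylation and repair partners of the Tet enzymes (18 of 20 above background) had a median of -0.10 and 0 calls. Gadd45g, a stress gene linked to active demethylation, had the largest difference of this list, -2.07 in clone #1 and -0.40 in clone #9. Gadd45b (0.84) and Smug1 (0.65), a uracil glycosylase, were on the other side of parental ES. Smug1 is on chromosome 15, where the 637 probes above background had a median log2 ratio of 0.40 in clone #9 and 0.02 in clone #1. Smug1 itself had 0.60 in clone #9 and 0.70 in clone #1, and any part of the chromosome was not tested. With normexp correction Gadd45g (adjusted p = 8.1e-04) and Gadd45b (0.026) were called, and Gadd45b also with eBayes trend and robust estimation (0.044), so that these calls depend on the processing. The KRAB zinc finger and Trim28 partners (18 of 18) had a median of -0.11 and 0 calls, led by Rif1 (-0.46), Daxx (-0.44) and Cbx3 (-0.34). At an unadjusted limma p below 0.05 the counts in these 3 lists were 0, 1 (Gadd45g) and 0.

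The regulators of Dnmt and Uhrf1 (17 of 17 above background) had a median of -0.17, with both clones below both other lines at 9 and above both at 2. Over all 25529 probes above background, these positions were held by 32.3% and 17.3%. Limma called 0 of the regulators, and 0 at an unadjusted p below 0.05. Dppa3 (Stella), which protects the maternal genome from Tet3 and keeps Uhrf1 from chromatin, had a level of -1.81 in parental ES and -1.85 in HoxA9-Ct ES, against -2.33 in clone #1 and -3.43 in clone #9. Both clones lay below the other lines, and the clones differed by 1.09. Their mean log2 ratio to parental ES was -1.07, and -0.44 with normexp correction. Prdm14, a repressor of Dnmt3b in naive ES cells, was at 2.31 and 2.59, against 2.69 and 2.65, a log2 ratio of 0.36 for the clones and 0.28 for HoxA9-Ct ES. Nsd1, which writes the H3K36 methylation that Dnmt3a reads, had -0.43.

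Germline genes, known as targets that promoter methylation keeps silent, included 1 call. Stra8, the retinoic acid target that starts meiosis, had a level of 1.97 in parental and 2.31 in HoxA9-Ct ES, with clone #1 at 4.10 and clone #9 at 6.18. It rose in both clones, by a log2 ratio of 2.14 and 4.22, with a mean of 3.18 ± 0.56 (limma adjusted p = 4.2e-06) against parental ES and 2.84 (adjusted p = 9.6e-05) against HoxA9-Ct ES. The call against parental ES was lost in 5 alternatives, where the adjusted p was 0.260 to 0.904. Of the 14 genes, 11 were above background, with a median log2 ratio of 0.12 for HoxA9-Ct ES and -0.0043 and 0.72 for clones #1 and #9. Dazl had 0.55 in clone #1 and 1.23 in clone #9, and Mael had 0.05 and 0.74. Both clones were above both other lines at 3 of the 11, against 17.3% of all 25529 probes above background. The 2-cell-like markers, of which 6 of 7 had a probe and 3 were above background, also lay apart between the clones. Zscan4c had -2.90 in clone #1 and 1.92 in clone #9, and Zscan4f -3.12 and 1.90, whereas Zfp352 had -0.55 and -0.88. Their part in the germline values was not tested.

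Markers of other states of the embryo also differed between the lines, and bulk RNA cannot tell fewer cells of a type from less RNA per cell. Of 8 primed epiblast markers, 4 fell in the clones against parental ES (limma adjusted p below 0.05): Otx2 (log2 ratio -1.94) and Fgf15 (-2.22), as well as Fgf5 and Lef1, which were not well above background on every array. The call for Fgf5 was lost in each of the 6 alternatives run, with a log2 ratio of -0.34 after normexp correction in place of -1.90. Otx2, Fgf15 and Lef1 kept their calls with normexp, the median of each array and eBayes trend and robust estimation, and lost them with quantile normalization, the authors' values and probes above background on at least 1 array. Pou3f1 (-0.91) was called only with normexp and with trend and robust (adjusted p = 0.035 and 0.028). Over the 6 markers above background the median log2 ratio was -0.99 in clone #1 and -0.70 in clone #9, and -0.39 in HoxA9-Ct ES. Otx2 itself was higher in HoxA9-Ct than in parental ES by 0.66, and Cdh2 by 0.34. All other markers of the list were lower there, with Lef1 at -1.84, Sox3 at -0.95 and Fgf15 at -0.84. Zic2 had -0.24 in clone #1 and 0.50 in clone #9.

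Of 8 primitive endoderm markers, 3 rose in the clones against parental ES (Gata6 with 2.38, Sox17 and Pdgfra), and 6 against HoxA9-Ct ES, with Gata4, Dab2 and Foxa2 added. Sox17, Dab2 and Foxa2 were well above background on 3 arrays and Pdgfra on 2. In HoxA9-Ct ES they lay at -5.74 to -4.67, under the lowest level well above background on that array, -4.23. The size of their ratios to HoxA9-Ct ES is therefore uncertain. Sox17 also fell in HoxA9-Ct against parental ES, to a level under that limit. Lama1, with 98.2% of the summed parental signal of the markers above background, had 0.12 in the clones and -1.06 in HoxA9-Ct ES. Against parental ES the calls of Gata6, Sox17 and Pdgfra were lost with quantile normalization and with probes above background on at least 1 array, and those of Gata6 and Sox17 with the authors' values. Gata4 (1.88), Sox7 (1.41) and Dab2 were called in that comparison only with normexp and with trend and robust. Of 7 trophectoderm markers, Cdx2 and Elf5 were called above parental ES, and Elf5, Krt7 and Hand1 above HoxA9-Ct ES, none well above background on every array. Krt7 and the endoderm marker Dab2 are on chromosome 15, whose median log2 ratio to parental ES was 0.40 in clone #9 and 0.02 in clone #1. Krt7 had 2.34 in clone #9 and 0.07 in clone #1, and any part of the chromosome was not tested. After normexp correction the log2 ratio to parental ES was 0.42 in place of 3.08 for Cdx2 and 0.29 in place of 2.33 for Elf5, and both calls were lost (adjusted p = 1.00). HoxA9-Ct ES also had 2.34 for Cdx2 (adjusted p = 0.060). Eomes (0.34) and Tfap2c (0.32), the trophectoderm markers above background on every array, were not called.

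The pluripotent, fibroblast and 2-cell-like markers held 0 calls by limma, and 0, 1 (Col1a2) and 1 (Tcstv1) at an unadjusted p below 0.05 in the clones against parental ES. The pluripotent markers with the largest differences were Tbx3 (0.82), Klf4 (0.42) and Nr0b1 (-0.42). Tbx3 was called with normexp and with trend and robust (adjusted p = 0.016 and 0.012), and Thy1 with normexp (0.033). With quantile normalization no probe of the array was called. The part of the marker shifts in the de novo values was not tested.

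**Figure D4:**
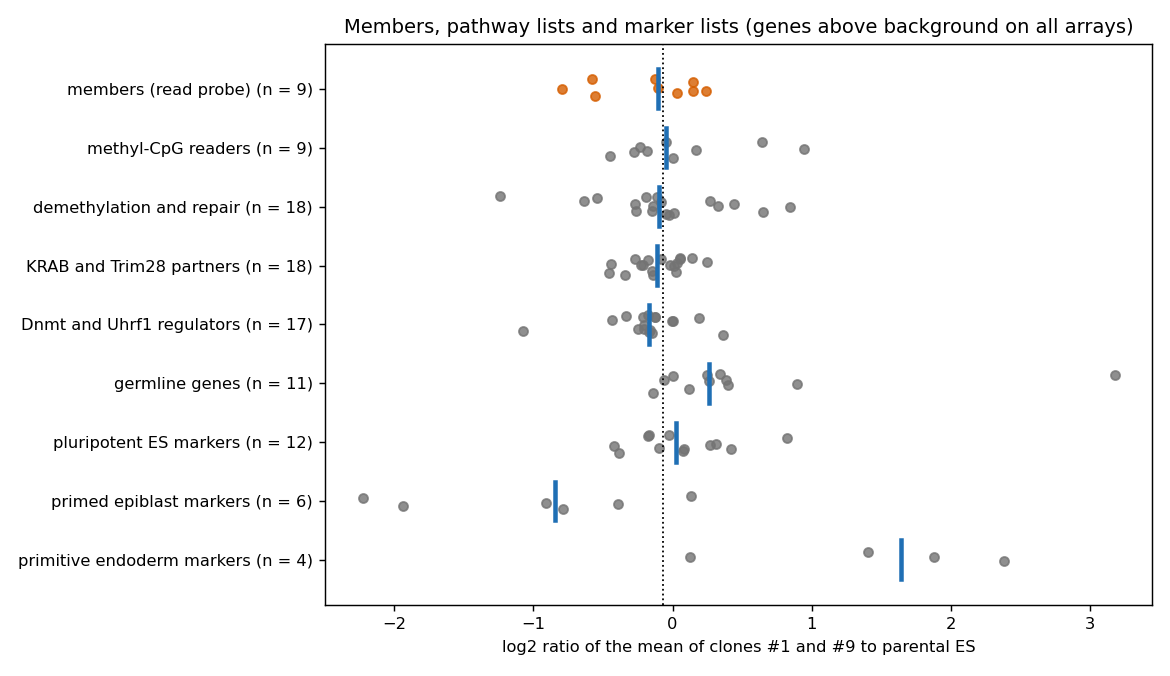
Log2 ratio of the mean of the clones to parental ES (horizontal axis) for the members, the 5 pathway lists and 3 marker lists, 1 point per gene above background on all arrays at its brightest probe, with random vertical jitter. Blue bars are list medians and the dotted line is the median of all 25529 probes (-0.07). The members split into Dnmt3a, Dnmt3b and Dnmt3l on the left and the remaining 6 near the line. The primed epiblast and primitive endoderm markers have medians of -0.85 and 1.64.

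Dnmt3l, as the member with the widest range, was compared with 12548 genes by the distance between patterns over the 4 lines, each line taken relative to the mean of the gene. The closest were Arhgap33os (distance 0.039), Pgc (0.089) and Cdc42ep1 (0.14). The log2 ratios of Arhgap33os to parental ES were 0.59 for HoxA9-Ct ES and -0.84 and -0.34 for the clones, next to 0.61, -0.78 and -0.33 for Dnmt3l. With 4 arrays such likeness is a description only.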

How the data were processed

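Expression was measured on Agilent SurePrint G3 Mouse GE 8×60K arrays. The authors read the scans with Agilent Feature Extraction (10.10.1.1). Their deposited files hold 1 intensity per spot, background-subtracted and spatially detrended (processed signal), with median spot and background intensity and flags. The deposited series matrix holds the authors' scaled intensity of the same arrays. The build named in the file headers is mm9. RefSeq names and windows are from GRCm38.p6, with coordinates printed for the windows only.

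Control spots were left out. Each level is log2 of the processed signal minus log2 of the array's 75th percentile, and spots of a probe were averaged without outlier-flagged spots. RefSeq transcripts named 26756 of 55681 probes. A gene was read at its probe with the highest mean signal. limma 3.58.1 (R 4.3.3) fitted the 3 groups with lmFit and eBayes. The fit has 1 residual degree of freedom, infinite prior degrees of freedom and a prior SD of 0.454, with Benjamini-Hochberg adjustment over 55562 probes at 0.05. On simulated data where all probes share a common spread, the fit recovered 114 of 200 changed probes. Of those with the smallest change, a log2 ratio of 1, it recovered 0. Where the spread depended on signal level, it recovered none of any size. It takes the spread of the single lines to equal that of the clones. The labels describe separate clones, with 1 array each. In this fit every probe gets the same spread, pooled over all 55562 probes, of which 25045 were well above background on no array. A p-value therefore does not measure the spread between the clones at its own probe. Stra8, with clones 2.08 apart, has the same standard error as Dnmt3a, with clones 0.05 apart. Counts and medians were computed in Python 3.11.15 with pandas 2.3.3 and numpy 2.4.6.

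The members, the 5 pathway lists and 6 marker lists, and the tests were chosen with earlier results of these data known. Named from each list were the genes called and the 3 with the largest difference of the clones from parental ES among genes above background on all arrays. Patterns were compared over genes with a read probe above background on all arrays. Alternatives were normexp background correction (offset 50, on median spot and background intensity, since mean spot intensity is not used here), quantile normalization, the median of each array, only probes above background on at least 1 array, eBayes with trend and robust, the authors' scaled values, the mean of all probes per gene, and leaving out each clone. Precision is limited by the number of arrays. Probe sequences are not used here.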

Additional observations from a re-analysis of the deposited data

Results flagged for a closer look

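Dnmt3l and 2 of the 3 Dnmt3b probes lay above parental ES in HoxA9-Ct ES and below it in both Nup98-HoxA9 clones, by more than the median SD between spots in each line. That SD is of a single spot, and a difference between single spots varies more. The log2 ratio of HoxA9-Ct ES to parental ES was 0.61 for Dnmt3l, 0.20 for Dnmt3b probe 2 and 0.23 for Dnmt3b probe 3. The error given with each of these spots was 0.14, so that the 2 Dnmt3b values are not far above technical noise. The corresponding values were -0.78 and -0.33 in clones #1 and #9 for Dnmt3l, -0.28 and -0.65 for Dnmt3b probe 2, and -0.36 and -0.64 for Dnmt3b probe 3. The difference itself, the clones against HoxA9-Ct ES, was -1.16, -0.67 and -0.73, with limma adjusted p-values of 0.653, 1.00 and 1.00.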

How the results depend on the processing

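Of the log2 ratios of the 9 members, 246 values under the alternatives kept their direction and, where tested, their side of the threshold. Uhrf1 in HoxA9-Ct ES was 0 with quantile normalization and is counted among them. The background filters and eBayes with trend and robust leave the log2 ratio as it is, so that only the p-value could change. The mean of all probes does the same for genes read by a single probe. Leaving out a clone gives no p-value, and by the rule used such a value could only be counted as kept. The sign did stay the same in each of these. Another 2 values gained a call and 4 changed sign. The 2 were Dnmt3l in the clones against HoxA9-Ct ES, with an adjusted limma p of 2.9e-04 (normexp) and 2.2e-05 (trend and robust). The 4 are all near 0: Uhrf1 in the clones as the mean of its probes (-0.0094), and in HoxA9-Ct ES Dnmt1 (-0.058) and Zfp57 (-0.039) with the median of each array and Tet2 with the authors' values (0.00059). The number of member probes called was 1 in the clones against HoxA9-Ct ES with normexp and with trend and robust, and 0 in the other settings. The number of all probes called in the clones against parental ES (781) was 0 with quantile normalization (5069 at an unadjusted limma p below 0.05), 0 with probes above background on at least 1 array (2224), 1243 with trend and robust, 140 with the authors' values and 11 with probes above background on all 4 arrays, a filter chosen after seeing the data. For HoxA9-Ct against parental ES (225) the counts were 73 with normexp, 0 with quantile (4179 unadjusted), 0 with at least 1 array (992), 18 with the authors' values and 0 with all 4 arrays (536). For the clones against HoxA9-Ct ES (756) they were 0 with quantile (5373), 0 with at least 1 array (2136), 1284 with trend and robust, 133 with the authors' values and 1 with all 4 arrays. With that last filter the prior SD was 0.198 in place of 0.454, and the adjusted p of Dnmt3a, Dnmt3b and Dnmt3l against parental ES was 0.461, 0.585 and 0.679. The cause of these shifts was not tested.

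The median log2 ratio of the member probes in the clones against parental ES (-0.08) was -0.029 with quantile normalization, -0.013 with the authors' values, and -0.075 to -0.028 when either clone was left out. Against HoxA9-Ct ES (-0.16) it was -0.12 with normexp, -0.093 with quantile, -0.11 with the median of each array, -0.10 with the authors' values and -0.20 to -0.10 without either clone. In HoxA9-Ct against parental ES (0.03) it was -0.040 with the median of each array. Leaving out a clone leaves no residual degree of freedom, so that it gives values and no test. No paired analysis was possible because the design pairs no lines.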
